A study of Mus musculus with 28 samples.

Results

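On day 5 of the reprogramming of mouse fibroblasts, 2 RNA-seq libraries of cells induced with the p38 inhibitor SB203580 (p38i) were compared with 2 libraries of cells induced in DMSO. These 4 were chosen by their labels, out of 28 libraries in 14 groups of 2. In both groups the cells were MEFs, primary mouse embryonic fibroblasts labelled wild type and carrying the Oct4-GFP reporter of the OG2 line, infected with retroviruses for Sox2, Klf4 and Oct4 and cultured in iCD1 medium. The p38i cells had SB203580 from the start of induction. The labels call the other group a control, and the study's results name it DMSO, the vehicle. MEF cultures at this stage hold other cell types besides fibroblasts, and in bulk RNA fewer cells of a type and less RNA per cell cannot be told apart. The labels give replicate numbers but no separate cultures, so the p-values measure only the spread between these samples, which may be technical.

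The p38 MAP kinases (MAPK) are stress-activated kinases that are switched on by inflammatory cytokines, osmotic shock and DNA damage. They act on transcription factors, on chromatin kinases and, through MK2, on the stability of messenger RNAs that carry AU-rich elements, among them those of many cytokines and chemokines. SB203580 occupies the ATP pocket of p38α and p38β. In reprogramming, retroviral Oct4, Klf4 and Sox2 turn fibroblasts towards pluripotency. The cells first lose fibroblast and gain epithelial genes, and activate the late pluripotency genes afterwards.

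Each value was taken as the whole-number part of a TPM, as the totals of the libraries allow. TPM is a gene's length-corrected share of its library scaled to a fixed total, so levels can be compared between genes. The read depth of a library cannot be known from TPM. Changes are given on the log2(value + 1) scale, which understates those of low genes. A gene is called higher or lower where limma, fitted on all 28 libraries and 13230 genes, gave a Benjamini-Hochberg adjusted p under 0.05.

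One of the 4 libraries stood apart. Rn18s-rs5, an 18S ribosomal RNA gene, was at 573 and 828 in DMSO, at 1035 in p38i replicate 1 and at 16361 in p38i replicate 2. Among the other 27 libraries it ranged from 266 to 2662. Other RNAs without a poly-A tail were high in the same library. The small nuclear RNA Rn7sk was at 309 against 4, 10 and 7 in the other libraries of day 5, the RNase MRP RNA Rmrp at 128 against 1, 0 and 1, and the signal recognition particle RNA Rn7s1 at 367 against 5, 6 and 5. Lars2, which encodes a mitochondrial leucyl-tRNA synthetase, was at 572 against 45, 58 and 71. The ribosomal RNA list took 1.94% of the total of this library and between 0.121% and 0.176% of the other libraries of day 5. With the ribosomal RNA list taken out and each library rescaled, 3452 genes were called on day 5, 1103 higher and 2349 lower in p38i. With the list kept, the counts were 3514, 1041 and 2473. Any other part of this library's make-up in the differences of other genes was not tested. Of 10719 genes with a mean of at least 5, 45 were 2-fold higher and 50 were 2-fold lower in p38i replicate 2 than in replicate 1, and 28 and 31 in DMSO. Each count of list members below was also made without p38i replicate 2, and for most lists is given where it moved by more than 1.5 times.

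**Figure D1:**
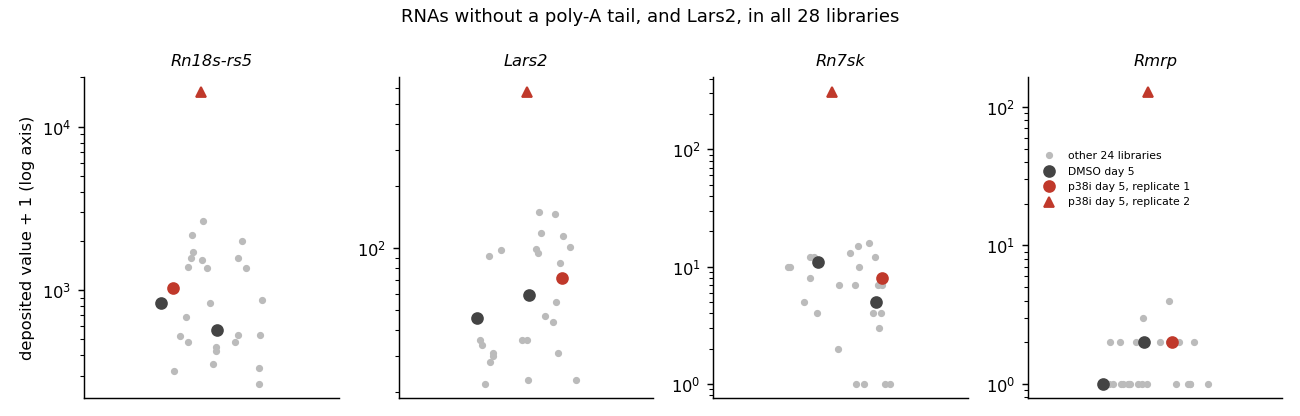
Deposited value plus 1, on log axes, of 4 transcripts in all 28 libraries, with the horizontal position arbitrary. The triangle is p38i day 5 replicate 2, which holds 16361 for Rn18s-rs5, 572 for Lars2, 309 for Rn7sk and 128 for Rmrp and lies above every other library in each panel.

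limma called 3514 of the 13230 genes (26.6%). Of these, 1041 were higher in p38i (7.87% of the genes tested) and 2473 were lower (18.7%). The imbalance was greater among large changes, with 63 genes at least 2-fold higher (0.476%) and 618 at least 2-fold lower (4.67%). The values of both groups did not overlap in 6808 genes, which is 51.5%. The median log2 fold change over all genes was -0.08. It moved to 0.03 after quantile normalization, which evens out the distributions of the libraries, and 52.7% of the calls were then higher in place of 29.6%. With median-ratio scaling the share was 39.8%. The balance of rises and falls thus depends on the scaling. In a fit of these 4 libraries alone, which has little to estimate the spread from, 978 genes were called, 209 higher and 769 lower.

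Many of the steepest falls were in genes of the interferon response. Interferons bind cell-surface receptors, Janus kinases phosphorylate STAT proteins, and STAT complexes and IRF1 then activate target genes through 2 short promoter elements, ISRE and GAS. Immunity-related GTPases (IRG) and guanylate-binding proteins (GBP) are among their strongly induced targets in mouse cells. They coat and break the vacuoles of intracellular parasites. Of the 16 tested genes of the list of interferon-inducible GTPases, 16 fell and none rose, with a median log2 fold change of -2.70. The promoters below, from RefSeq on GRCm38.p6, are shown because they carry these elements next to the start sites of genes that fell. They run 5′ to 3′ on the gene's strand and end upstream of the RefSeq start, which can differ from the gene bounds in the deposited table, so that the stretch of Tgtp1 lies inside the bounds given below for that gene. Capitals mark ISRE, read here as GAAA, any 2 bases and GAAA again, and GAS (TTCNNNGAA), on either strand.
Tgtp1, chr11:48992302-48992346, minus strand: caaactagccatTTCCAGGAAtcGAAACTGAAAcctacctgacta
Igtp, chr11:58199499-58199543, plus strand: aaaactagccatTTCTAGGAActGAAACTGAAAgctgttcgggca
Gbp2, chr3:142620592-142620625, plus strand: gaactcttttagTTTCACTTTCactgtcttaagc
Irf1, chr11:53769912-53769944, plus strand: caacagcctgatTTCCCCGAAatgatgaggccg
B2m, chr2:122147536-122147569, plus strand: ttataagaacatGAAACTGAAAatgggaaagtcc

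In the window from 250 bases before to 50 bases after the start, ISRE was found in 9 of the 9 GTPase genes that have a promoter in the table, against 1079 of 27025 genes (4.0%) over the genome. GAS was found in 6 of these 9 and in 9.6% of all genes. Among tested genes, to which the list counts are limited, the shares were 3.8% for ISRE and 8.1% for GAS. For the MHC class I list the counts were 5 and 2 of 19, and for the other interferon-stimulated genes 14 and 9 of 37. The letters are a description of these windows and do not show that a factor was bound.

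Tgtp1 (chromosome 11, 48985327 to 48994172), an IRG, was at 862 and 836 in DMSO libraries and 129 and 119 in p38i libraries (log2 fold change -2.77, standard error 0.19, adjusted p = 3.58e-09, limma). Tgtp2, its neighbour, went from 180 and 128 to 1 and 2 (-5.96, adjusted p = 5.05e-11, limma), the steepest fall of all called genes under the rule for named genes. Tgtp1, Tgtp2 and Gm12185 share stretches of near-identical sequence, so the split of reads between them is uncertain. Igtp stood at 244 and 231 against 22 and 18, Gbp2 at 299 and 285 against 37 and 33, and Irgm1 at 662 and 671 against 196 and 196. In each of these genes both DMSO values lay above both p38i values, with replicates close to each other. Groups without overlap, in either direction, were found in 51.5% of all genes. Iigp1 went from 115 and 111 to 2 and 2 (-5.25, adjusted p = 1.13e-12, limma). The smallest change in the list was in Mx1, an antiviral GTPase, at 3 and 4 against 2 and 1, and this call was lost without p38i replicate 2 (adjusted p = 0.311, limma).

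Of 47 tested interferon-stimulated genes, 36 fell and none rose (median -0.88). Ifi47, another IRG, went from 267 and 266 to 18 and 16 (-3.90). Irf1, the transcription factor that acts through ISRE, was at 86 and 86 in DMSO libraries and 14 and 17 in p38i libraries (-2.40, standard error 0.19, adjusted p = 2.87e-08, limma). Isg15, a ubiquitin-like antiviral protein, went from 438 and 441 to 166 and 183. Stat2 and Irf9, subunits of the ISRE-binding complex ISGF3, also fell, Stat2 from 163 and 177 to 86 and 84 and Irf9 less, from 103 and 110 to 80 and 85. Genes upstream of the STATs did not pass the test. Ifnar1, a subunit of the type I receptor, was at 54 and 57 against 58 and 57, Ifngr1 of the type II receptor at 29 and 33 against 28 and 31, and Jak1 at 70 and 78 against 74 and 76, and the lowest adjusted p among the 6 receptor and Janus kinase genes of the list was that of Ifngr2 (0.115, limma). The ligands themselves were hardly seen. Ifnb1 was listed at 0 in the 4 libraries, and Ifng at 1 in DMSO replicate 1 and at 0 in the others.

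The MHC class I pathway fell as a whole. Its products cut proteins in the immunoproteasome, carry the peptides into the endoplasmic reticulum and load them on class I molecules. All 26 genes tested were called lower, with a median of -1.63, and 22 of them were at least 2-fold lower. The class I heavy chain H2-K1 (chromosome 17, 33996017 to 34000333) stood at 1591 and 1383 in DMSO and 277 and 268 in p38i (-2.44, standard error 0.07, adjusted p = 2.93e-14, limma). H2-D1 went from 891 and 795 to 276 and 283, and the nonclassical H2-Q6 from 47 and 35 to 1 and 1, though H2-Q6 and H2-Q7 share sequence with other class I genes. B2m, the light chain of all class I molecules, is one of the most abundant transcripts of the table and fell from 6056 and 5699 to 2930 and 2875 (-1.02, adjusted p = 4.33e-12, limma). The immunoproteasome subunit Psmb8 went from 222 and 186 to 13 and 12, and Psmb9 from 77 and 64 to 4 and 5. The peptide transporter Tap1 was at 179 and 182 against 30 and 29. Nlrc5, the transactivator of class I genes, was at 19 and 18 against 3 and 3. The least changed were the general chaperones Calr, at 949 and 956 against 851 and 834, and Pdia3, at 721 and 733 against 636 and 672. Without p38i replicate 2, 15 of the 16 GTPases, 33 of the 47 interferon-stimulated genes and 25 of the 26 class I genes were still called lower.

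**Figure D2:**
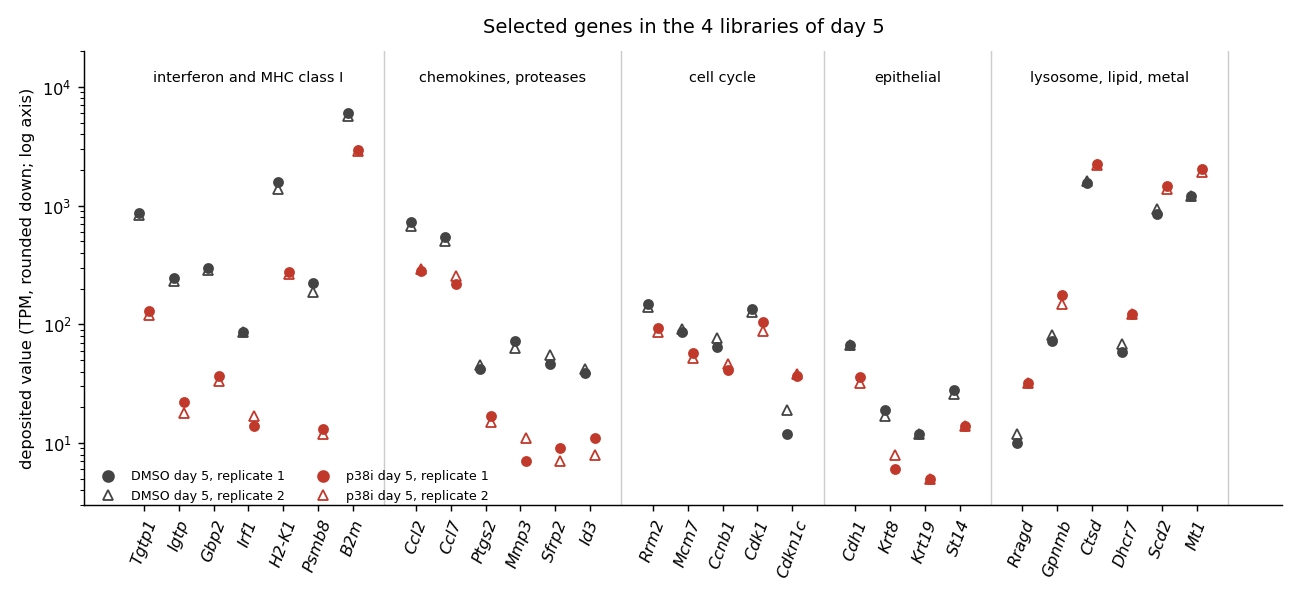
Deposited value of 28 genes in each of the 4 libraries of day 5 on a log axis, grouped by role, with filled circles for replicate 1 and open triangles for replicate 2. In the first panel DMSO lies above p38i for every gene, from 862 and 836 against 129 and 119 in Tgtp1 to 6056 and 5699 against 2930 and 2875 in B2m, while the last panel runs the other way.

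Inflammatory signals fell as well. Of 24 chemokine and cytokine genes tested, 18 were lower and 1 was higher (median -1.13), beside 18.7% and 7.87% of all genes. Ccl2 and Ccl7, attractants of monocytes, went from 726 and 677 to 280 and 290 and from 546 and 500 to 217 and 255. Cxcl10, an interferon-induced attractant of T cells, was at 11 and 16 against 3 and 0. Ptgs2, the inducible cyclooxygenase, fell from 42 and 45 to 17 and 15 (-1.39, standard error 0.10, adjusted p = 3.14e-09, limma). The acute-phase protein gene Saa3 went from 93 and 98 to 5 and 5. Cxcl12, the ligand of CXCR4, was the 1 that rose, from 8 and 10 to 20 and 20.

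Macrophage markers moved in the same direction as the interferon and chemokine genes. Of 20 tested markers 14 fell and 1 rose (median -1.10), beside 18.7% of all genes called lower and 7.87% higher. The values of the whole list added up to 686 and 704 in DMSO and to 306 and 300 in p38i. The scavenger receptor Marco went from 50 and 56 to 3 and 2, the complement component C1qa from 24 and 23 to 4 and 2, the integrin Itgam from 16 and 16 to 3 and 2, and Adgre1, which encodes F4/80, from 11 and 14 to 2 and 2. Lyz2, the macrophage lysozyme, was at 270 and 261 against 121 and 136. Cd68, a lysosomal glycoprotein, rose from 44 and 51 to 60 and 67, a call that was lost without p38i replicate 2 (adjusted p = 0.160, limma). The pan-leukocyte gene Ptprc was listed at 1 and 1 in DMSO and 0 and 0 in p38i, and Cx3cr1, Cd3d and Cd3e at 0 in all 4. The part of macrophages in the changes of the interferon and chemokine genes was not tested.

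Genes of proliferation fell together, by a smaller amount. The mitosis and cytokinesis list covers cyclins, kinases and spindle proteins that peak in G2 and M. Of its 42 tested genes, 41 fell and none rose (median -0.58). Cdc25b, at 20 and 27 against 21 and 19, was the 1 not called. Many such genes carry the cell-cycle homology region (CHR), TTTGAA, near the start, as in these 2 examples with the element in capitals.
Cdk1, chr10:69352913-69352995, minus strand: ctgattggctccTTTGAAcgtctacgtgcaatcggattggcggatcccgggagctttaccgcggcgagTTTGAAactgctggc
Prc1, chr7:80294434-80294463, plus strand: cctctggctcggTTTGAAttccgcggggtc

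CHR was found in 26 of 35 tested genes of this list with a promoter, against 14.4% of all tested genes and 20.2% of all genes. Cdk1, the mitotic kinase, was at 134 and 128 in DMSO and 104 and 87 in p38i (-0.46, standard error 0.08, adjusted p = 0.000234, limma). Its partner cyclin B1, encoded by Ccnb1, was at 64 and 76 against 41 and 46, and Prc1, which bundles the midzone microtubules, at 50 and 50 against 36 and 39. The largest fall of the list was in Cep55, an abscission factor, from 14 and 12 to 5 and 7. In these 4 genes the groups did not overlap, which held for 41 of the 42 genes of the list and for 51.5% of all genes. Of 35 DNA replication genes, 25 fell and none rose (median -0.50). Rrm2, the regulated subunit of ribonucleotide reductase, went from 147 and 141 to 93 and 86 (-0.68, adjusted p = 9.74e-09, limma), and the helicase subunit Mcm7 from 86 and 92 to 57 and 52. Cyclins and inhibitors of G1 went both ways, with 2 higher and 4 lower of 18, or 1 and 4 without p38i replicate 2, beside 26.6% called over all genes. Ccnd1 was at 1008 and 1076 against 1071 and 1020, while Cdkn1c, which encodes the CDK inhibitor p57, rose from 12 and 19 to 37 and 38 (1.25, adjusted p = 3.83e-05, limma). After quantile normalization 36 mitotic and 20 replication genes were lower.

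The p53 list had 14 genes lower and 1 higher of 30 (median -0.27), beside 18.7% of all genes called lower and 7.87% higher. After quantile normalization 12 were lower and 3 higher, with a median of -0.18. Trp53 was at 184 and 199 in DMSO libraries and 130 and 118 in p38i libraries (-0.62, standard error 0.07, adjusted p = 8.67e-07, limma). Cdkn1a, its target that encodes p21, was at 1027 and 1033 against 811 and 811, and the death receptor gene Fas at 27 and 27 against 11 and 12. Without p38i replicate 2, 9 genes of this list were lower and none was higher. Myc, which drives growth and was not among the transduced factors, fell from 35 and 39 to 23 and 16.

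Epithelial genes, which rise in the course of reprogramming, were lower in p38i. Of 30 tested, 17 fell and 1 rose (median -0.85), beside 18.7% of all genes called lower and 7.87% higher. The adhesion molecule Cdh1 (chromosome 8, 106603351 to 106670246) was at 67 and 67 in DMSO and 36 and 32 in p38i (-0.96, standard error 0.10, adjusted p = 3.99e-07, limma). The keratins Krt8 and Krt19 went from 19 and 17 to 6 and 8 and from 12 and 12 to 5 and 5, and the protease St14 from 28 and 26 to 14 and 14. Epcam, at 39 and 34 against 30 and 28, and Cldn3, at 2 and 2 against 1 and 0, did not pass the test (adjusted p = 0.261 and 0.0649, limma). Itgb4, an integrin of hemidesmosomes, rose from 349 and 378 to 529 and 484. Without p38i replicate 2, 10 epithelial genes were lower. Genes of stratified epidermis fell too, 9 of 17 with none higher, led by the transglutaminases Tgm3 (41 and 39 against 5 and 7) and Tgm1 (27 and 25 against 4 and 4).

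Of 19 mesenchymal genes, 3 were higher and 5 lower (median 0.04), and 3 and 3 without p38i replicate 2. Over all genes, 7.87% were called higher and 18.7% lower. Vim, the intermediate filament of fibroblasts, rose from 2530 and 2787 to 3557 and 3388, and Twist1 from 141 and 128 to 161 and 153. Zeb1, at 15 and 19 against 18 and 19, was not called. The receptor Pdgfra fell from 8 and 7 to 2 and 4 and the homeobox gene Prrx1 from 86 and 100 to 56 and 54.

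Of 31 pluripotency genes, 18 passed the filter, 5 of these fell and none rose, beside 18.7% of all genes called lower. The median log2 fold change was -0.24. After quantile normalization it was -0.04, with 5 lower and 1 higher. Gdf3, a ligand of embryonic stem cells, was at 26 and 26 in DMSO and 8 and 10 in p38i (-1.44, standard error 0.16, adjusted p = 2.11e-06, limma). Zfp42, which encodes Rex1, was at 14 and 14 against 5 and 4, and the RNA-binding protein gene L1td1 at 178 and 204 against 123 and 115. Nanog was listed at 0 and 1 against 0 and 0, and Esrrb, Dppa5a, Sall4 and Dppa3 at 0 in all 4 libraries, and at these values no difference could be shown. Total Pou5f1, which includes the transgene, fell from 2944 and 3117 to 2472 and 2319 (-0.34, adjusted p = 1.4e-05, limma). Total Klf4 was at 755 and 801 against 698 and 596, a call that was lost without p38i replicate 2 (adjusted p = 0.274, limma), and total Sox2, at 942 and 1018 against 914 and 784, was not called.

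Secreted and matrix genes included some of the larger falls. The list counts that follow stand beside 7.87% of all genes called higher and 18.7% called lower. The stromelysin Mmp3 went from 73 and 63 to 7 and 11 (-2.81, standard error 0.24, adjusted p = 7.27e-08, limma), and 6 of 15 metalloproteinase and TIMP genes fell while 1, Timp2, rose from 443 and 478 to 794 and 780. Of 19 collagens, 12 fell and none rose, among them Col1a1, from 418 and 507 to 295 and 270. Without p38i replicate 2, 10 were lower and 1 higher, and with quantile or median-ratio scaling 11 and 1. Other matrix genes divided into 7 higher and 8 lower of 27. Postn fell from 79 and 80 to 32 and 30, and Aebp1 rose from 99 and 105 to 193 and 184. Of 12 BMP pathway genes 2 rose and 5 fell. The target genes Id1 and Id3 fell from 61 and 49 to 15 and 15 and from 39 and 42 to 11 and 8, and the ligand Bmp2 from 23 and 26 to 8 and 7, while Id2, at 84 and 69 against 73 and 75, was not called. The 2 that rose were the BMP antagonist Grem1, from 171 and 193 to 232 and 237, and the protease Bmp1, from 79 and 86 to 108 and 100. Of 16 Wnt genes 1 rose and 7 fell, or 2 and 5 without p38i replicate 2 and also after quantile normalization. The extracellular modulators Sfrp2 and Dkk2 went from 46 and 55 to 9 and 7 and from 37 and 32 to 12 and 12. Axin2, a general feedback target of β-catenin, was at 11 and 12 against 9 and 13 and was not called, and Dkk3 rose from 16 and 22 to 29 and 27. The placental hormone genes Prl2c2 and Prl2c3, known as proliferins and of near-identical sequence, went from 180 and 179 to 35 and 43 and from 70 and 72 to 21 and 17.

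The list with the most rises was that of lysosomal genes. TFEB, TFE3 and MITF activate this set, often through the E-box CACGTG, when they enter the nucleus. Of 49 tested genes, 29 rose and 2 fell (median 0.27), beside 7.87% of all genes called higher and 18.7% lower. The E-box was found in 15 of 40 tested genes of the list with a promoter. It was in 11.7% of all tested genes and in 8.1% of all genes. The promoter of Mcoln1, which encodes the lysosomal calcium channel, holds it more than once, in capitals here.
Mcoln1, chr8:3500436-3500491, plus strand: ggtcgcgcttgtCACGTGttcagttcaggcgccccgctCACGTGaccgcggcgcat

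Mcoln1 rose from 64 and 63 to 84 and 77. Rragd (chromosome 4, 32983037 to 33022180), a GTPase that recruits mTORC1 to the lysosome, had the largest change, from 10 and 12 to 32 and 32 (1.46, standard error 0.16, adjusted p = 1.67e-06, limma). The membrane glycoprotein gene Gpnmb rose from 72 and 82 to 175 and 149, and the protease gene Ctsd from 1564 and 1609 to 2257 and 2213 (0.49, adjusted p = 1.02e-08, limma). The 2 that fell were the factors Mitf, at 3 and 2 against 1 and 1, and Tfe3, at 61 and 73 against 56 and 53, and both calls were lost without p38i replicate 2 (adjusted p = 0.0942 and 0.0955, limma). Lipid synthesis genes also leaned up, with 15 higher and 3 lower of 34, or 13 and 1 without p38i replicate 2. Dhcr7, the last enzyme of cholesterol synthesis, rose from 59 and 68 to 122 and 121, and the desaturase Scd2 from 852 and 937 to 1474 and 1388. Both share stretches of near-identical sequence with other genes, Scd2 with Scd1 and Dhcr7 with 5 genes at a mean of 1 or more, among them Rpia. Of 6 metallothionein and zinc genes 2 rose and 1 fell, and Mt1, which binds zinc and copper, rose from 1206 and 1199 to 2044 and 1917. With quantile or median-ratio scaling 2 genes of this list were higher and none was lower.

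**Figure D3:**
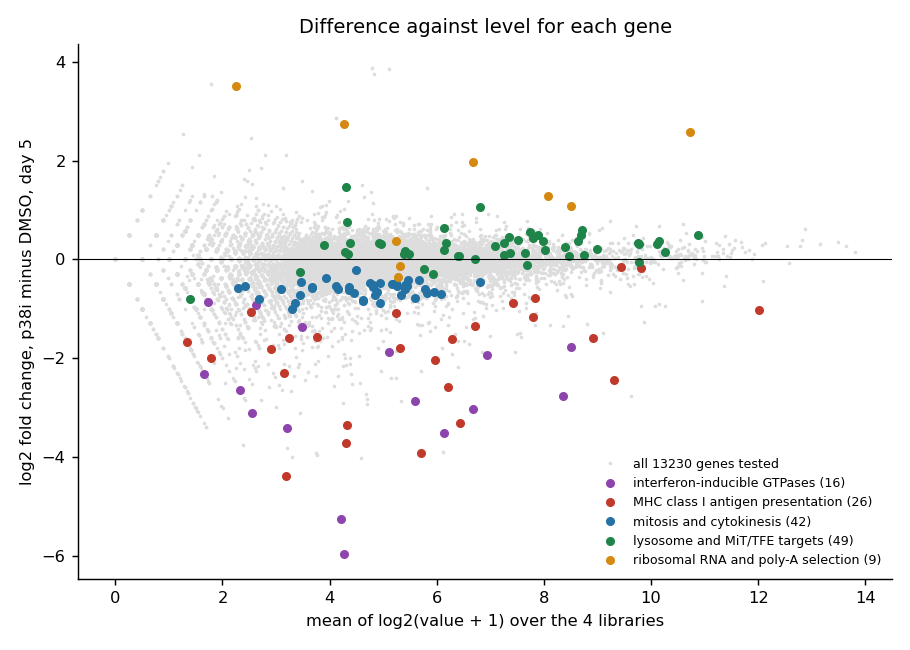
Log2 fold change of p38i against DMSO on day 5 for each of 13230 genes against its mean log2(value + 1) over the 4 libraries, with members of 5 lists in colour and their numbers tested in brackets. The GTPase and class I genes lie below 0 at every level up to B2m, the mitotic genes form a narrow band near -0.58, the lysosomal genes lie mostly above 0, and the ribosomal RNA list holds the high points that rest on p38i replicate 2.

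Among the 4 p38 genes, Mapk14, which encodes p38α, was at 41 and 39 in DMSO and 45 and 45 in p38i and was not called, and neither were Mapk11 (2 and 4 against 3 and 2), Mapk12 (0 and 1 against 1 and 1) and Mapk13 (15 and 16 against 20 and 19). SB203580 blocks the kinase and not its transcript, so these values do not check the treatment. Map2k6, a kinase that activates p38, rose from 9 and 10 to 21 and 25 (1.19, standard error 0.13, adjusted p = 1.66e-06, limma). Map2k3, of the same list and at higher values, went only from 78 and 91 to 98 and 93 (0.18, adjusted p = 0.0370, limma). Hspb1, a small heat shock protein downstream of MK2, fell from 214 and 234 to 136 and 134. In all, 3 of 23 pathway genes were higher and 5 lower, beside 26.6% called over all genes. Without p38i replicate 2 these counts were 2 and 3, and after quantile normalization 5 and 2, with the median moving from -0.06 to 0.10. The immediate-early genes gave 1 higher and 6 lower of 19, and Fos, at 9 and 10 against 9 and 7, was not called.

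Other lists are given by their counts, beside 7.87% of all genes called higher and 18.7% called lower. Nuclear respiratory chain subunits gave 3 higher and 2 lower of 38, or 1 and 2 without p38i replicate 2. Glycolysis and hypoxia genes gave 4 and 8 of 31, or 3 and 5 without it. TGF-beta and YAP targets gave 3 and 3 of 17, and contractile genes 2 and 1 of 14. Cytosolic ribosomal protein genes gave 12 higher and 1 lower of 48, with a median of 0.08. The higher count was 6 after quantile normalization and 19 with median-ratio scaling. Mitochondrially encoded subunits gave 9 higher and none lower of 13, a median of 0.31, but after quantile normalization 2 were higher, and the log2 fold change of mt-Atp8 turned from 0.39 to -0.043. The mitochondrial share of the total was 4.83% and 4.54% in DMSO and 6.09% and 6.12% in p38i. Of 35 stress-response genes under ATF4, 14 fell and 3 rose. Wars, whose product loads tryptophan on its tRNA and which is also induced by interferon, fell from 667 and 661 to 212 and 196, the largest change of that list. After quantile normalization the genes called higher became 2 in the interferon-stimulated list, 2 in the chemokine list, 3 in the p53 list, 5 in the mesenchymal list and 1 in the pluripotency list.

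**Figure D4:**
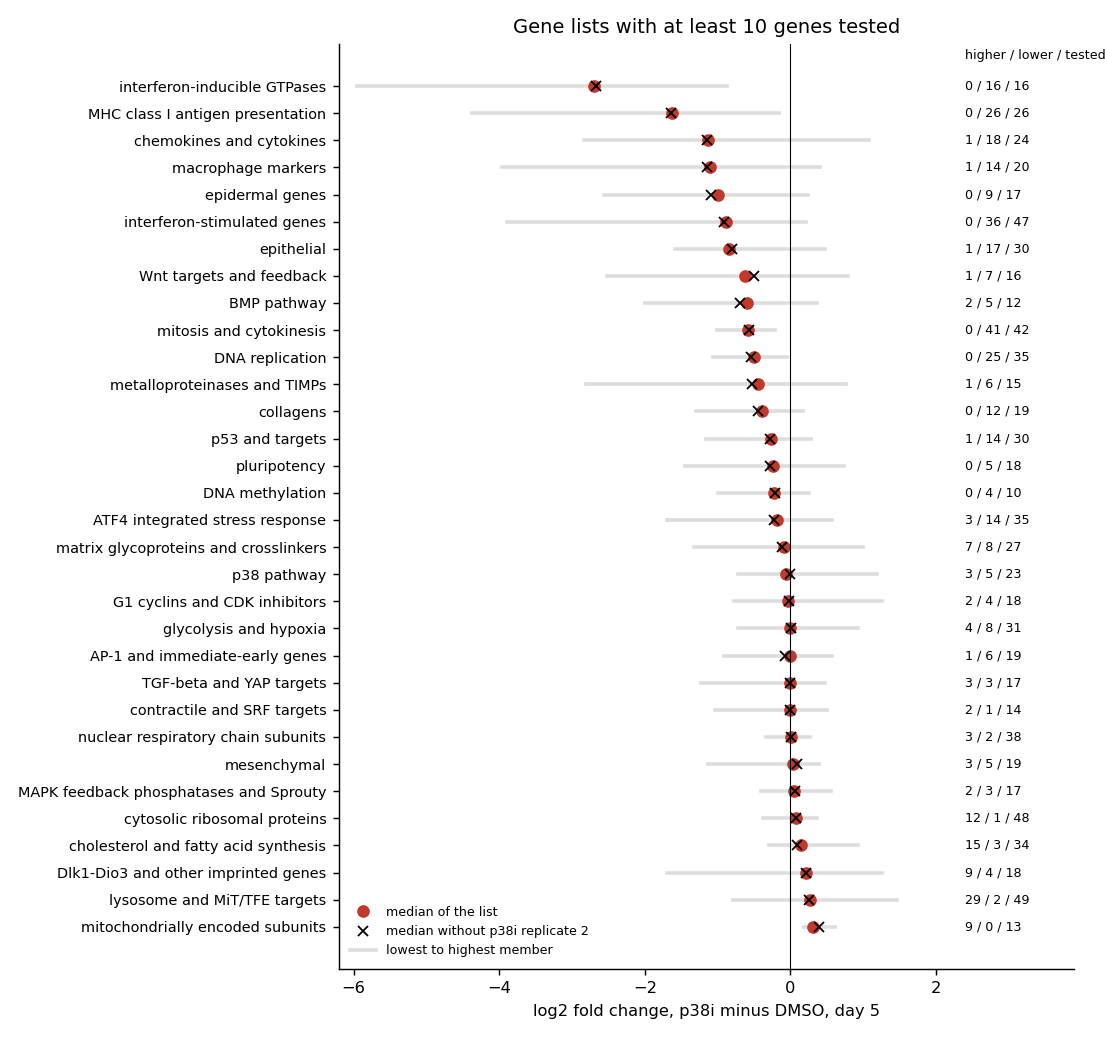
Median log2 fold change of each list with at least 10 genes tested (circles), the same without p38i replicate 2 (crosses) and the range of the members (grey lines), with the numbers of genes higher, lower and tested at the right. The lists run from the interferon-inducible GTPases at -2.70 to the mitochondrially encoded subunits at 0.31, and circles and crosses lie close to each other.

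Among all genes, the 10 steepest falls at mean values of 5 or more without overlap were Tgtp2, Iigp1, H2-Q6, Saa3, Gm4951, Marco, Psmb8, Gm12250, Ifi47 and Il18bp, which encodes the interleukin-18 decoy and went from 31 and 36 to 1 and 2. The 10 largest rises included Rn18s-rs5 and Lars2, which rest on p38i replicate 2. Their log2 fold changes were 2.58 and 1.96 with it and 0.59 and 0.47 without it. The others were Cers1, a ceramide synthase, from 1 and 2 to 13 and 12, Gap43, a growth cone protein, from 15 and 12 to 39 and 41, Arhgap22 from 3 and 2 to 10 and 13, Olfml1 from 2 and 2 to 10 and 9, Gpr143 from 5 and 6 to 20 and 17, Mrpl23 from 2 and 3 to 10 and 8, Hist1h2al from 6 and 3 to 14 and 13, and Rragd. The calls of Mrpl23 and Hist1h2al were lost without p38i replicate 2 (adjusted p = 0.0537 and 0.0570, limma). Mrpl23 has a near-identical pseudogene and Hist1h2al near-identical histone genes in the table, so their reads may be shared.

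In DMSO the GTPase and class I lists had their highest mean on day 5. Tgtp1 was listed at 0 and 0 in MEFs and in DMSO stood at 2 and 3 after 1 day, 467 and 575 after 3 days, 862 and 836 after 5 days and 379 and 351 after 7 days. With p38i the same days gave 0 and 1, 39 and 37, 129 and 119, and 145 and 154. H2-K1 was at 24 and 23 in MEFs and in DMSO went from 185 and 197 on day 3 to 1591 and 1383 at day 5 and 1476 and 1338 at day 7, against 127 and 133, 277 and 268, and 483 and 437 in p38i. The median difference of the GTPase list for days 1, 3, 5 and 7 was 0.00, -2.50, -2.70 and -1.14, and that of the class I list was -0.01, -0.98, -1.63 and -1.05. The libraries of days 3 and 7 are not those of day 5, so the change of the difference can be tested.

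From day 3 to day 5 the p38i difference changed in 238 genes (1.80%), becoming higher in 118 (0.892%) and lower in 120 (0.907%). In the class I list 7 members went lower, among them H2-K1 (-1.89, adjusted p = 1.8e-09, limma) and B2m (-0.84, adjusted p = 1.35e-07, limma), and in the GTPase list 1. H2-K1 and B2m were picked after their values were seen, and the p-values do not allow for this choice. Collagens and other matrix genes went the other way, with 8 of 19 and 14 of 27 higher, and 11 of 34 lipid synthesis genes were lower. A fit of only the groups compared called 4 genes, and leaving out 1 library gave 96 to 270.

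From day 5 to day 7 the difference changed in 750 genes (5.67%), with 544 higher (4.11%) and 206 lower (1.56%). This balance depended on the scaling, with 414 higher and 346 lower after quantile normalization and 376 and 289 with median-ratio scaling. Here 12 of the 16 GTPases, 14 of the 47 interferon-stimulated genes and 16 of the 26 class I genes were higher, which for these genes means a smaller deficit on day 7. For Tgtp1 the change was 1.49 (adjusted p = 0.00330, limma) and for H2-K1 0.83 (adjusted p = 7.76e-05, limma). The deficit of 10 mitotic and 8 replication genes grew. In Cdk1, values on day 7 gave a further -0.48 (adjusted p = 0.0170, limma). Tgtp1, H2-K1 and Cdk1 were picked after their values were seen, which their p-values do not allow for. In 5 members of the pluripotency list the difference was lower on day 7, with changes of -4.74 in Dppa5a, -3.17 in Sall4, -2.66 in Esrrb, -2.39 in Nanog and -0.95 in Klf2, of which the first 4 had been at 0 or 1 in every library of day 5. A fit of only the groups compared called 178 genes, and leaving out 1 library gave 337 to 644.

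**Figure D5:**
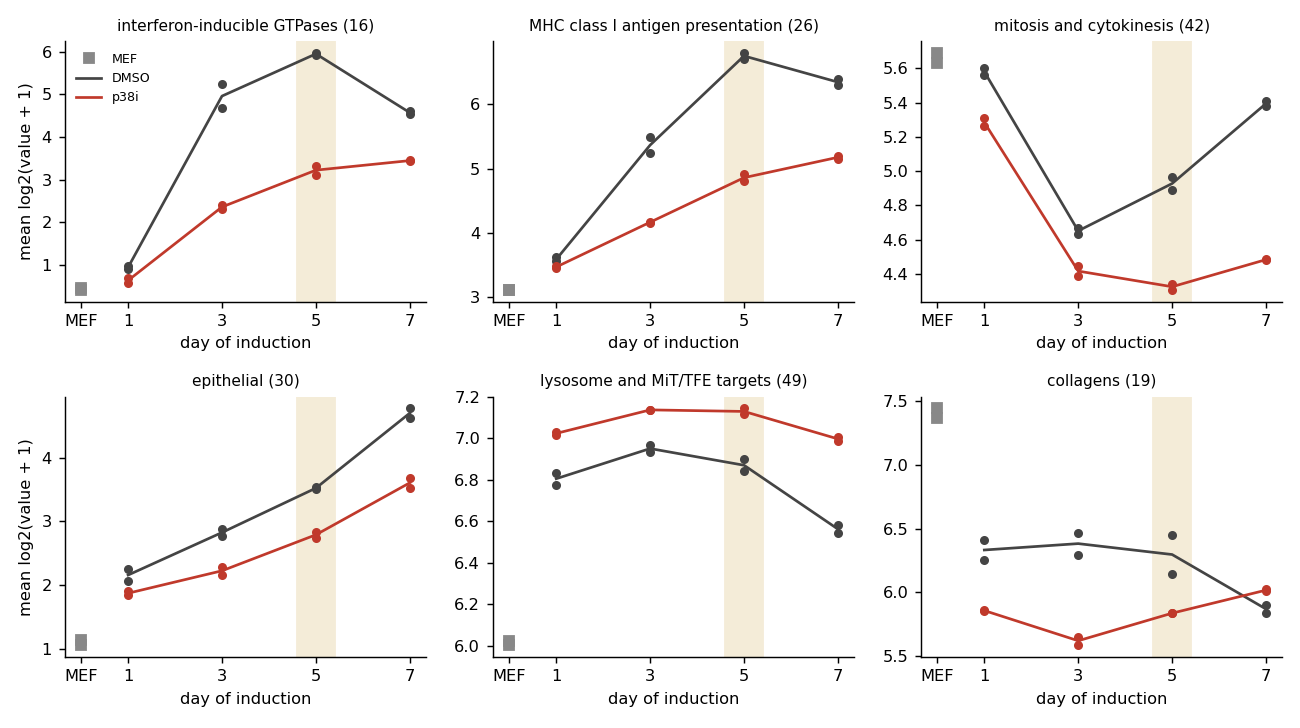
Mean log2(value + 1) of the tested members of 6 lists in each DMSO and p38i library by day of induction, with MEFs at the left, lines through the group means and day 5 shaded. In DMSO the GTPase and class I lists peak on day 5 and in p38i they stay below. The mitotic lines, already apart on day 1, move further apart after day 3, and the collagen lines cross before day 7.

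Cells that had the inhibitor before induction and not during it (pre-p38i) are set beside these values. Both comparisons use the same DMSO libraries, and the difference between them was not tested. On day 5 pre-p38i, Tgtp1 stood at 718 and 758, H2-K1 at 2250 and 2356 and Ccnb1 at 122 and 134. Cdh1 was at 138 and 137. For the macrophage genes Marco and Adgre1, pre-p38i gave 22 and 17, and 3 and 2. Against DMSO, the median log2 fold change in pre-p38i was 0.24 for the GTPases, 0.50 for the class I list, 0.85 for mitosis, 0.73 for the epithelial list and -0.36 for the lysosomal list, beside -2.70, -1.63, -0.58, -0.85 and 0.27 in p38i. Other lists had a median below 0 in both. In pre-p38i and p38i these were -1.53 and -1.10 for macrophage markers, -1.91 and -2.02 for proliferins, and -0.44 and -1.13 for chemokines. They were -0.52 and -0.39 for collagens, -0.46 and -0.60 for the BMP list, and -0.40 and -0.45 for metalloproteinases and TIMPs.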

How the data were processed

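RNA-seq libraries were compared as deposited by the authors, in a table with 1 value per gene and library for 50600 genes. The submitters' processing notes name bcl2fastq, Bowtie2 2.2.5, RSEM 1.3.0 and the builds hg38 and mm10, without their roles. The deposited values hold no decimals, total 991287 to 992537 in each library, and were treated as a score, namely TPM that the authors rounded down, so depth is unknown, no counting interval can be given and no count test was run. Labels and study differ on the library kit and RNA extraction. Groups came from the labels.

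Linear models from limma 3.58.1 (R 4.3.3), with an intensity trend in eBayes, were fitted on log2(value + 1) with 14 groups and 14 residual degrees of freedom, over the 13230 genes whose mean in 28 libraries reached 1, and changes of the difference between days were contrasts of the same fit. For 1 gene, exact permutation of 2 against 2 libraries has a smallest p of 0.333. On data drawn with known changes for the day 5 comparison (13230 genes, 200 changed), the fit called 30 of 67 genes changed by 0.5 on the log2 scale, 52 of 67 changed by 1, 64 of 66 changed by 2, and 13 unchanged genes. The unchanged genes were 8.18% of those called. The drawn noise was independent between libraries, with the same spread for a gene in each, and few genes were changed. The draw therefore does not give the error rate of the calls above. Replicate numbers were not used to pair the samples. Deviations of same-numbered libraries correlated at 0.00959 between the day 5 groups and at -0.0838 to 0.0874 over all groups. This cannot exclude that same-numbered samples shared a culture or batch, which the labels do not state.

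The named genes are the 10 largest rises and falls among called genes that averaged 5 or more in the 4 libraries and did not overlap, up to 4 called members of each list in each direction, and a set of reporters of reprogramming and of p38. The other list members named, such as Tgtp1, H2-K1, B2m, Cdk1 and Ccl2, are outside this rule and were picked after their values were seen, to illustrate their lists. The libraries and 42 gene lists (952 of 957 entries matched) were chosen with earlier results of these data known. Near-identical genes were sought with BLAST (at least 95% identity over 200 bases) in the GENCODE M21 transcripts, and promoters come from RefSeq, 250 bases before to 50 after the start. Alternatives were a stricter filter (mean 5), no filter, a pseudocount of 0.1, fitting the compared groups alone, a replicate block, quantile and median-ratio scaling, rescaling without ribosomal RNA, array weights, and leaving out each library.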

Additional observations from a re-analysis of the deposited data

Results flagged for a closer look

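The difference between p38i and DMSO changed with the day of induction, as tested by contrasts of the limma fit between days that share no library. It differed between days 3 and 5 in 238 genes and between days 5 and 7 in 750 genes. Among the named genes, the deficit was larger on day 5 than on day 3 in H2-Q6 (-2.79), Saa3 (-2.38), Iigp1 (-1.34) and Gm4951 (-1.16), and the excess of Gap43 was larger by 0.87. From day 5 to day 7 the difference moved up in Iigp1 (3.02), Il18bp (2.54), Tgtp2 (2.49), Gm4951 (2.36), Marco (2.31), Ifi47 (2.22), H2-Q6 (1.87), Saa3 (1.79), Gm12250 (1.75) and Twist1 (0.46). It moved down in Dppa5a (-4.74), Esrrb (-2.66) and Nanog (-2.39), which were at 0 or 1 in all libraries of day 5. All are log2 changes of the difference. Tgtp2, Iigp1, H2-Q6, Saa3, Gm4951, Marco, Gm12250, Ifi47, Il18bp and Gap43 were named for the size of their day 5 difference, which enters both contrasts, so the choice of these genes favours a larger difference on day 5 than on the other days. Groups of 2 libraries are too small to test a single library against its group.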

How the results depend on the processing

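The number of genes called on day 5 stayed between 2980 and 3662 under 8 of the alternatives that keep every library, against 3514, and was 978 in the fit of only the groups compared. Leaving out 1 library gave 2395 to 2673. At a 2-fold minimum, 681 genes became 356 with a minimum mean of 5, 358 in the fit of only the groups compared, and 580 to 644 with a library left out. The share of calls that were higher, 29.6%, became 52.7% after quantile normalization and 39.8% with median-ratio scaling, and 23.8% to 33.8% with a library left out. The change of the difference from day 3 to day 5 was the least stable. Its 238 genes became 4 in the fit of only the groups compared, 131 with a replicate block, 129 with array weights and 96 to 270 with a library left out. It was 96 without DMSO day 3 replicate 1, 99 and 132 without p38i day 3 replicate 1 and 2, 114 without DMSO day 5 replicate 1 and 145 without p38i day 5 replicate 1. From day 5 to day 7 the 750 genes became 178 in the fit of only the groups compared and 337 to 644 with a library left out. It was 337 without DMSO day 5 replicate 2, 348 without p38i day 7 replicate 2, and 350 and 433 without DMSO day 7 replicate 1 and 2. With the replicate block, 3285 genes were called on day 5 and 541 changed from day 5 to day 7. The causes were not tested. Of 197 named genes called, 70 were called in every alternative run and 118 in every alternative but the fit of only the groups compared. Among the 197 named genes that were called, 1 changed sign, as the log2 fold change of mt-Atp8 became -0.043 after quantile normalization. Without read depth, the precision of values near 0 is unknown.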

Other observations

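Imprinted genes moved in both directions, with 9 higher and 4 lower of 18 (median 0.21), or 7 and 1 without p38i replicate 2. Dio3, which inactivates thyroid hormone, went from 20 and 19 in DMSO to 7 and 4 in p38i, and Cdkn1c is a member that rose. Of 10 DNA methylation genes 4 were lower and none higher. Of 17 MAPK feedback genes, 2 were higher and 3 lower, and 1 and 0 without p38i replicate 2. Replication-dependent histones, whose transcripts lack a poly-A tail, gave 3 higher and none lower of 7, and 1 without p38i replicate 2. All these counts stand beside 7.87% of all genes called higher and 18.7% called lower.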
